A study of Homo sapiens with 20 samples.

Results

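The facilitative glucose transporters described here are *SLC2A1*, *SLC2A3*, *SLC2A6*, *SLC2A8*, *SLC2A10*, *SLC2A12* and *SLC2A13*. These 7 genes were picked by symbol, each matched 1 of the 58233 Ensembl identifiers in the count tables, and they form part of a family that runs to *SLC2A14* and has 14 members. The set was put forward because *SLC2A6* rose after *ADAR* knockout (KO) in NCI-H196 cells and *SLC2A3* fell after *ADAR* KO in vehicle-treated A549 cells. Values from these contrasts are therefore given as a description, with no test.

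The study used lung cancer cell lines to ask what happens to gene expression when *ADAR* is lost, and how interferon-β (IFN-β) changes this. HCC366 is labelled as an adenosquamous carcinoma, NCI-H1650 and A549 as adenocarcinomas and NCI-H196 as a variant small cell lung cancer. All cells carried Cas9 and an sgRNA delivered by lentivirus, directed against *GFP* (control) or *ADAR*. HCC366, NCI-H1650 and NCI-H196, which depend on ADAR1 for survival, were otherwise untreated, and their RNA was taken 5 days after transduction. A549 cells, which tolerate *ADAR* loss, were treated for 24 h with IFN-β at 10 ng/mL or with vehicle. There were thus 10 conditions and 20 libraries. Each condition had 2 libraries that differ in the sgRNA, so every SD below has n = 2 and measures the spread between sgRNAs, which may be technical, and not repeats of the experiment. Transduced cells were kept by drug selection, and the share of edited cells in each library is not given in the sources used here.

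Most transporters of this family carry hexoses across membranes down their gradient, without energy input. *SLC2A1* encodes GLUT1, which provides basal glucose uptake in most cells and is raised in many tumours, and *SLC2A3* encodes GLUT3, a high-affinity transporter best known from neurons. *SLC2A6* and *SLC2A8* encode transporters that are held largely on internal membranes. *SLC2A10* is the gene of arterial tortuosity syndrome, *SLC2A12* encodes a transporter related to the insulin-responsive GLUT4, and *SLC2A13* encodes a proton-coupled transporter of myo-inositol.

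The members lie on 5 chromosomes. In GRCh37, *SLC2A1* (ENSG00000117394) spans positions 43391024 to 43424564 of chromosome 1, minus strand. *SLC2A3* (ENSG00000059804) spans 8071826 to 8171603 of chromosome 12, minus strand, near its close copy *SLC2A14*. *SLC2A6* (ENSG00000160326) spans 136336216 to 136344249 of chromosome 9, minus strand, and *SLC2A8* (ENSG00000136856) spans 130159417 to 130170703 of the same chromosome, plus strand. *SLC2A10* (ENSG00000197496) spans 45338288 to 45364986 of chromosome 20, plus strand. *SLC2A12* (ENSG00000146411) spans 134308719 to 134373762 of chromosome 6, minus strand, and shares 2852 bases with *TBPL1* on the opposite strand. *SLC2A13* (ENSG00000151229) spans 40148827 to 40499891 of chromosome 12, minus strand, and overlaps *C12orf40* on the opposite strand.

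The promoters of *SLC2A12* and *SLC2A6* are shown because these members passed the threshold in an IFN-β test reported further on. The RefSeq promoter table (GRCh38.p14) matched 6 members and held no *SLC2A3* entry. The 250 bases before the start were searched on both strands for a motif like the interferon response element (GAAANNGAAA), the core of the hypoxia response element (ACGTG or GCGTG), a motif like that of ATF4 with C/EBP (TGATGNAA) and the E-box (CACGTG, which contains ACGTG). Capitals mark the matches, which describe the letters and are no evidence of a bound factor. *SLC2A12* is on the minus strand at chr6:134052625-134052874, and *SLC2A6* is on the minus strand at chr9:133479100-133479349, both in GRCh38.p14 and both written 5′ to 3′ along the gene.
SLC2A12: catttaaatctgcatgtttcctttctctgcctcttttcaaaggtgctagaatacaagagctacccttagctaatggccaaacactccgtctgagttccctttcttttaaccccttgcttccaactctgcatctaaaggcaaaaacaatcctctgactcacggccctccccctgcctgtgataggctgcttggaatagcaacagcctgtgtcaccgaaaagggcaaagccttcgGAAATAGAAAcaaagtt
SLC2A6: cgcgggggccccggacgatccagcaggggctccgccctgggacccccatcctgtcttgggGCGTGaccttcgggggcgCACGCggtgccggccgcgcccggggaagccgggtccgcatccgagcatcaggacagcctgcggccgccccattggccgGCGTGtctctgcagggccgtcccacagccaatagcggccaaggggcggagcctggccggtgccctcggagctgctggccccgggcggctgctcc
The *SLC2A12* window held 1 match to GAAANNGAAA, which begins 17 bases before the start, and no other of the 6 members had one. Among 35116 RefSeq promoter windows of this length, 3.021% had at least 1 such match. The *SLC2A6* window held 3 matches to the hypoxia core, a motif present in 43.21% of all windows. *SLC2A12* also stood apart in base composition, with 46.0% G and C and 4 CpG sites, against 65.2% (*SLC2A8*) to 76.8% (*SLC2A6* and *SLC2A10*) in the other members.

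The reads on genes ranged from 62679 to 19520189 per library, and 2 libraries stood apart. NCI-H196 GFP sg2 held the lowest number, so that a single read there equals 14.7 CPM, the unit of reads scaled to library size that is used below. Alignments to more than 1 place made up 85.6% in HCC366 ADAR sg2 and 22.5% to 59.1% in every other library. *ADAR* itself checked the labels. In HCC366 it measured 953 ± 210 CPM with GFP sgRNAs and 531 ± 57.3 CPM with ADAR sgRNAs, in NCI-H1650 691 ± 98.7 and 282 ± 20.2 CPM, and in NCI-H196 764 ± 142 and 523 ± 58.2 CPM. In A549 it measured 437 ± 0.573 and 206 ± 62.8 CPM with vehicle, and 1206 ± 18.3 and 793 ± 144 CPM with IFN-β. The ADAR libraries were lower in every pair of groups, and transcripts carrying small deletions can still be counted. All 5 epithelial markers were well above 1 CPM in NCI-H1650. In A549 and HCC366 only the keratins *KRT8* and *KRT18* were abundant: *EPCAM* reached at most 0.630 and 1.87 CPM, *KRT19* at most 1.66 and 0 CPM, and *CDH1* 16.6 to 61.2 and 2.28 to 9.91 CPM. In NCI-H196, the 5 epithelial markers summed to 41.8 to 63.6 CPM, while 3 fibroblast-associated markers summed to 1943 to 2791 CPM. The 6 neuroendocrine markers summed to 0 to 3.24 CPM in NCI-H196, 4.63 to 9.15 in A549, 5.71 to 10.8 in HCC366 and 17.8 to 31.6 in NCI-H1650. Among them *INSM1* and *NEUROD1* had no read in NCI-H196, A549 or HCC366. The squamous markers *TP63*, *KRT5*, *KRT6A* and *SOX2* summed to only 1.43 to 4.89 CPM in HCC366 and 3.04 to 4.56 in A549. Their sum was 13.8 to 41.8 CPM in NCI-H196 and 60.7 to 73.8 in NCI-H1650.

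To ask how the lines differ without *ADAR* loss, the GFP controls were compared on 1 scale, as CPM per kilobase of exon after TMM scaling over all 20 libraries. These cells had also been transduced with Cas9 and an sgRNA, and only those of A549 had 24 h of vehicle. Line and handling thus cannot be told apart in comparisons with A549. The 7 members held 95.8% to 99.3% of the summed CPM per kb of the 14 family genes in each library. *SLC2A1* had the highest level per kb in 19 of 20 libraries, and *SLC2A6* had it in HCC366 ADAR sg2. In a joint edgeR test over the 4 lines, 7 of 7 members differed, but so did 80.6% of all genes tested, and the member count stayed at 7 under every alternative tried. That count includes *SLC2A3* and *SLC2A6*, and control libraries in this test also served in the contrasts that helped choose the set.

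**Figure D1:**
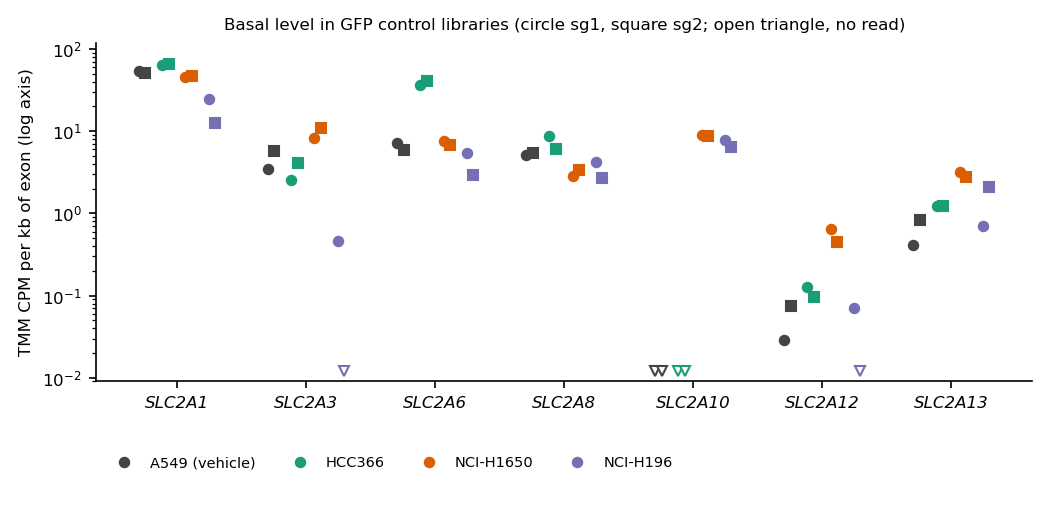
Basal level of each member in the GFP control libraries of 4 lines (vehicle-treated for A549), as TMM CPM per kb of exon on a log axis. Each point is 1 library (circle sg1, square sg2), and open triangles at the base mark libraries with no read: *SLC2A10* had none in A549 or HCC366, and *SLC2A6* was higher in HCC366 (36.4 and 40.5) than in any other line.

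*SLC2A1* varied little among 3 of the lines. Its level per kb was 64.3 and 65.5 CPM in the 2 GFP libraries of HCC366, 53.8 and 51.7 in A549, 45.8 and 46.3 in NCI-H1650, and 24.5 and 12.7 in NCI-H196. The groups do not overlap, and NCI-H196 was the lowest. NCI-H196 lay below NCI-H1650 by a log2 difference of −1.03 (SE 0.20, adjusted p = 8.78e-05 by edgeR), and by −0.91 (adjusted p = 0.000426) without its GFP sg2 library, where *SLC2A1* had 8 reads. HCC366 and A549 did not differ past the threshold (0.30, SE 0.18, adjusted p = 0.160), nor did NCI-H1650 and A549 (−0.20, SE 0.18, adjusted p = 0.361). With DESeq2's size factors in edgeR, the difference of HCC366 from A549 was 0.49 (adjusted p = 0.00643).

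*SLC2A3* had the widest range of the members found in all 4 lines. It measured 8.37 and 10.9 CPM per kb in NCI-H1650, 3.50 and 5.77 in A549, 2.56 and 4.06 in HCC366, and 0.455 and 0 in NCI-H196. HCC366 lay below NCI-H1650 by a log2 difference of −1.45 (SE 0.25, adjusted p = 1.34e-05 by edgeR). The A549 controls also served in the contrast that helped choose the set. Differences of *SLC2A3* from A549 are therefore a description and not offered as tests. NCI-H1650 exceeded A549 by a log2 difference of 1.03 (SE 0.21), and NCI-H196 was below A549 by −3.38 (SE 0.35). Without GFP sg1, NCI-H196 is left with a library that has no *SLC2A3* read. The A549 and HCC366 values overlap, with a log2 difference of −0.42 (SE 0.25). With single libraries left out that difference ran from −0.92 (without HCC366 GFP sg2) to −0.01 (without A549 GFP sg2), and it was −0.73 without A549 GFP sg1.

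*SLC2A6* was the member that set HCC366 apart. Its level was 36.4 and 40.5 CPM per kb in HCC366, 7.65 and 6.75 in NCI-H1650, 7.19 and 5.83 in A549, and 5.50 and 2.96 in NCI-H196. The HCC366 level exceeded that of NCI-H1650 by 5.36-fold and that of A549 by 5.99-fold (adjusted p = 4.98e-11 and 4.11e-12 by edgeR). NCI-H1650 and A549 did not differ past the threshold (log2 difference 0.16, SE 0.22, adjusted p = 0.566 by edgeR). The NCI-H196 controls also served in the contrast that helped choose the set, and GFP sg2 held 1 read of the gene. As a description only, NCI-H196 differed from NCI-H1650 by −0.41 (SE 0.26) and from A549 by −0.25 (SE 0.26).

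*SLC2A10* was present or absent by line. No read fell on it in any of the 12 libraries of A549 and HCC366, whereas the 8 libraries of NCI-H1650 and NCI-H196 all held some. The GFP libraries measured 9.05 and 8.82 CPM per kb in NCI-H1650 and 7.83 and 6.49 in NCI-H196, the last from 3 reads. Against a floor of 3 reads in each GFP library of the line without reads, NCI-H1650 was at least 119-fold higher than A549 and at least 29.3-fold higher than HCC366. NCI-H1650 and NCI-H196 did not differ past the threshold (log2 difference of NCI-H196 from NCI-H1650 −0.21, SE 0.23, adjusted p = 0.496 by edgeR).

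The remaining members had moderate or low levels. *SLC2A8* measured 7.37 ± 1.94 CPM per kb in HCC366, 5.27 ± 0.199 in A549, 3.46 ± 1.12 in NCI-H196 and 3.11 ± 0.423 in NCI-H1650. Its order placed HCC366 above NCI-H1650 (log2 difference 1.18, SE 0.25, adjusted p = 0.000322 by edgeR), while its neighbours HCC366 and A549 did not differ past the threshold (adjusted p = 0.140, and 0.0325 with DESeq2's size factors in edgeR). *SLC2A13* measured 2.97 ± 0.248 CPM per kb in NCI-H1650, 1.39 ± 0.983 in NCI-H196, 1.22 ± 0.012 in HCC366 and 0.625 ± 0.298 in A549, and NCI-H1650 exceeded A549 by 4.51-fold (adjusted p = 1.15e-08 by edgeR). The mean in NCI-H196 rests partly on 2 reads in GFP sg2. *SLC2A12* had the lowest level of the detected members in each line, at 0.544 ± 0.132 CPM per kb in NCI-H1650 and 0.112 ± 0.023, 0.052 ± 0.032 and 0.035 ± 0.049 in HCC366, A549 and NCI-H196. NCI-H1650 exceeded A549 on this gene by a log2 difference of 3.16 (SE 0.57, adjusted p = 2.29e-05 by edgeR), on 1 and 5 reads in A549. It was 2.81 without A549 GFP sg1 and 4.08 without A549 GFP sg2.

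The following counts by pair of lines include calls that 1 library decides. *SLC2A1* between HCC366 and NCI-H1650 (0.50, SE 0.18, adjusted p = 0.0246 by edgeR) was lost without any of the 4 GFP libraries involved (0.44 to 0.48). *SLC2A13* between HCC366 and A549 (0.89, SE 0.31, adjusted p = 0.0178) was lost without A549 GFP sg1 (0.54) or without either HCC366 GFP library (0.87 and 0.84). *SLC2A12* between HCC366 and NCI-H1650 (−2.34, SE 0.72, adjusted p = 0.00975) was lost without HCC366 GFP sg2 (−2.10) or NCI-H1650 GFP sg1 (−2.08). *SLC2A8* between NCI-H1650 and A549 (−0.76, SE 0.23, adjusted p = 0.00544) was lost without NCI-H1650 GFP sg1 (−0.65), and between NCI-H196 and HCC366 (−0.74, SE 0.27, adjusted p = 0.0273) without HCC366 GFP sg1 (−0.47). Calls of *SLC2A3*, *SLC2A8*, *SLC2A12* and *SLC2A13* against NCI-H196 that rest on its GFP sg1 were lost when only the library of 62679 reads was left.

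Of the members, 2 passed the threshold between HCC366 and A549 (background of all genes 50.8%), 5 between NCI-H1650 and A549 (53.8%) and 3 between NCI-H196 and A549 (57.8%). For HCC366 and NCI-H1650 the count was 7 (41.0%), for NCI-H196 and HCC366 it was 5 (43.2%), and for NCI-H196 and NCI-H1650 it was 4 (46.7%). The counts of NCI-H1650 and NCI-H196 against A549 include *SLC2A3*, and that of NCI-H196 and HCC366 includes *SLC2A6*. These calls share control libraries with the contrasts used for the choice, so nothing is read from them. With DESeq2's size factors in place of TMM, the median of all genes moved by 0.13 and 0.15 on the log2 scale in the comparisons of HCC366 and NCI-H1650 with A549, and by −0.12 and −0.11 in those of NCI-H196 with HCC366 and NCI-H1650. Differences of that size in the basal comparisons depend on the scaling.

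The effect of *ADAR* KO in the ADAR1-dependent lines was then examined, on TMM CPM within each line. In these bulk libraries, fewer cells with a transcript and less of it per cell cannot be told apart.

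**Figure D2:**
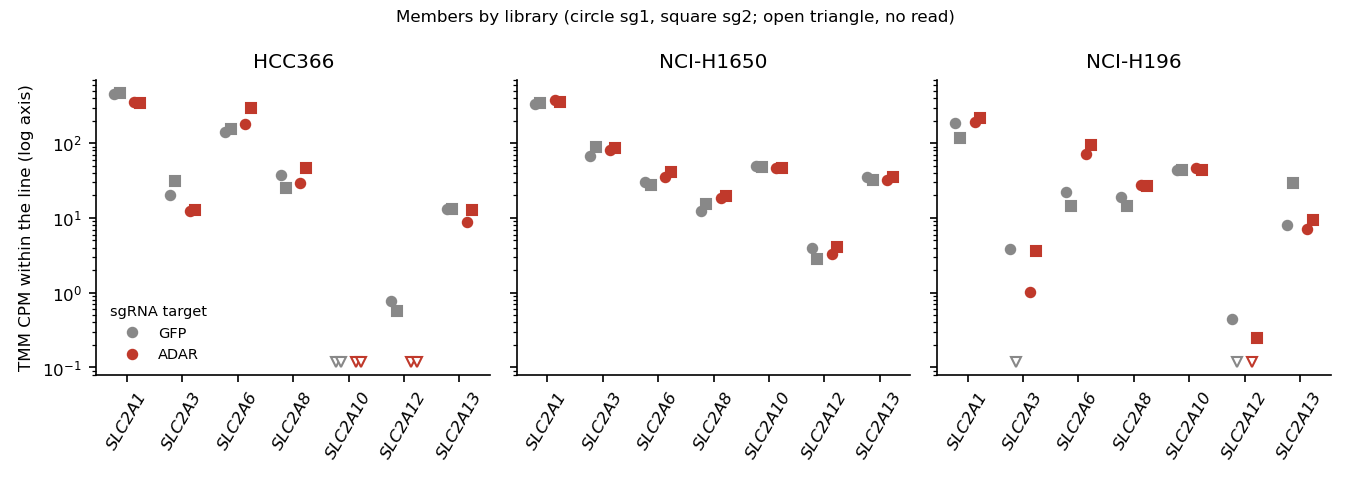
TMM CPM of each member, on a log axis, in the GFP (grey) and ADAR (red) libraries of HCC366, NCI-H1650 and NCI-H196, with circles for sg1, squares for sg2 and open triangles for no read. The ADAR libraries of *SLC2A6* lay above its GFP libraries in HCC366 and NCI-H1650, where the difference did not pass the threshold. They also did in NCI-H196, where this rise helped choose the set and GFP sg2 held 1 read of the gene.

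In HCC366, 5 members could be tested and none passed the threshold, where 1.25% of all genes did. By unadjusted p, 1 member was under 0.05, and DESeq2 called 0. *SLC2A6* measured 139 and 153 CPM in the GFP libraries and 183 and 297 CPM in the ADAR libraries, a log2 fold change of 0.71 (SE 0.35, adjusted p = 0.314 by edgeR). The groups do not overlap, yet the 2 ADAR libraries lie far apart, and the higher of them is sg2, the one with many alignments that were not unique. Without it the log2 fold change was 0.33 (adjusted p = 0.382), and without ADAR sg1 it was 1.00 (adjusted p = 3.66e-06). Without ADAR sg1 the lone ADAR library is assumed to vary like the GFP libraries, and 6408 genes passed the threshold in all, so that the p-values without it say little about single members. *SLC2A3* measured 20.1 and 31.5 CPM in the GFP libraries and 12.2 and 12.9 CPM in the ADAR libraries, on 14 to 110 reads. Its log2 fold change was −1.06 (SE 0.42, adjusted p = 0.238 by edgeR), and it was −1.14 (adjusted p = 0.0603) without ADAR sg2, −1.10 (adjusted p = 0.00712) without ADAR sg1 and −0.67 (adjusted p = 1.00) without GFP sg2. *SLC2A1* measured 461 and 464 CPM with GFP sgRNAs and 359 and 340 CPM with ADAR sgRNAs, lower in both, with a log2 fold change of −0.40 (SE 0.29, adjusted p = 0.475) that was −0.46 (adjusted p = 0.0460) without ADAR sg1. In the fit of all 20 libraries 2 members passed in HCC366, *SLC2A6* (0.67, adjusted p = 0.0169) and *SLC2A3* (−1.16, adjusted p = 0.0210), but 19% of all genes passed there. *SLC2A8* and *SLC2A13* had log2 fold changes of 0.31 (SE 0.40) and −0.26 (SE 0.43). *SLC2A12* had 1 and 2 reads in the GFP libraries and 0 in the ADAR libraries, too few to test.

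In NCI-H1650, the line with the most even depth, all 7 members were tested and none passed the threshold, against 8.60% of all genes. By unadjusted p, 2 members were under 0.05, and DESeq2 called 0. *SLC2A6* measured 30.2 and 27.2 CPM in the GFP libraries and 35.5 and 41.4 CPM in the ADAR libraries. Both ADAR libraries were higher, and the log2 fold change was 0.42 (SE 0.15, adjusted p = 0.0818 by edgeR), or 0.52 (adjusted p = 0.0463) without ADAR sg1. *SLC2A8* measured 12.3 and 15.3 CPM with GFP sgRNAs and 18.6 and 19.4 CPM with ADAR sgRNAs, again without overlap, at a log2 fold change of 0.46 (SE 0.20, adjusted p = 0.147). *SLC2A3* was not lower here, with 67.9 and 90.3 CPM against 81.5 and 86.5 CPM (log2 fold change 0.09, SE 0.12, adjusted p = 0.742 by edgeR). *SLC2A1*, *SLC2A10*, *SLC2A12* and *SLC2A13* had log2 fold changes of 0.11 (SE 0.10), −0.07 (SE 0.13), 0.10 (SE 0.38) and 0.00 (SE 0.15).

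The effects in HCC366 and NCI-H1650 were compared directly in the fit of all libraries, where 2.21% of all genes differed. None of the 7 members passed the threshold by edgeR, 2 were under an unadjusted p of 0.05, and DESeq2 called 0. The largest measurable difference was that of *SLC2A3*, at −1.26 (SE 0.42, adjusted p = 0.101 by edgeR). That of *SLC2A1* was −0.56 (SE 0.25, adjusted p = 0.249). Without HCC366 ADAR sg1 they were −1.36 for *SLC2A3* and −0.72 for *SLC2A1*. Those values rest on ADAR sg2 alone, the library with many alignments that were not unique. The difference for *SLC2A6* was 0.24 (SE 0.30, adjusted p = 0.749).

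In NCI-H196, whose *SLC2A6* value helped choose the set, 1 of 6 members, *SLC2A6* itself, was past the edgeR threshold beside 17.8% of all genes, from which nothing is read since the contrast was used for the choice. *SLC2A6* measured 22.3 and 14.7 CPM in the GFP libraries, from 200 reads and 1 read, and 71.1 and 95.7 CPM in the ADAR libraries, from 70 and 763 reads. Both ADAR libraries were above both GFP libraries, with a log2 fold change of 2.02 (SE 0.15), which was 2.01 without the shallow GFP sg2 and 1.98 by DESeq2, which gave no adjusted p for it. Without GFP sg1 it was 2.64, set against the single read of GFP sg2. *SLC2A8* measured 19.2 and 14.7 CPM with GFP sgRNAs and 27.4 and 27.0 CPM with ADAR sgRNAs (log2 fold change 0.50, SE 0.19). *SLC2A1* measured 186 and 117 CPM against 192 and 219 CPM (0.20, SE 0.10). *SLC2A10* was close to level, at 43.5 and 44.0 CPM against 46.7 and 44.4 CPM (0.04, SE 0.15). *SLC2A3* and *SLC2A13* had log2 fold changes of −0.17 (SE 0.42) and 0.17 (SE 0.28), and *SLC2A12* had at most 4 reads in a library.

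The A549 libraries hold the effects of *ADAR* KO and of IFN-β together. *SLC2A10* was at 0 in all 8, and 6 members were tested.

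**Figure D3:**
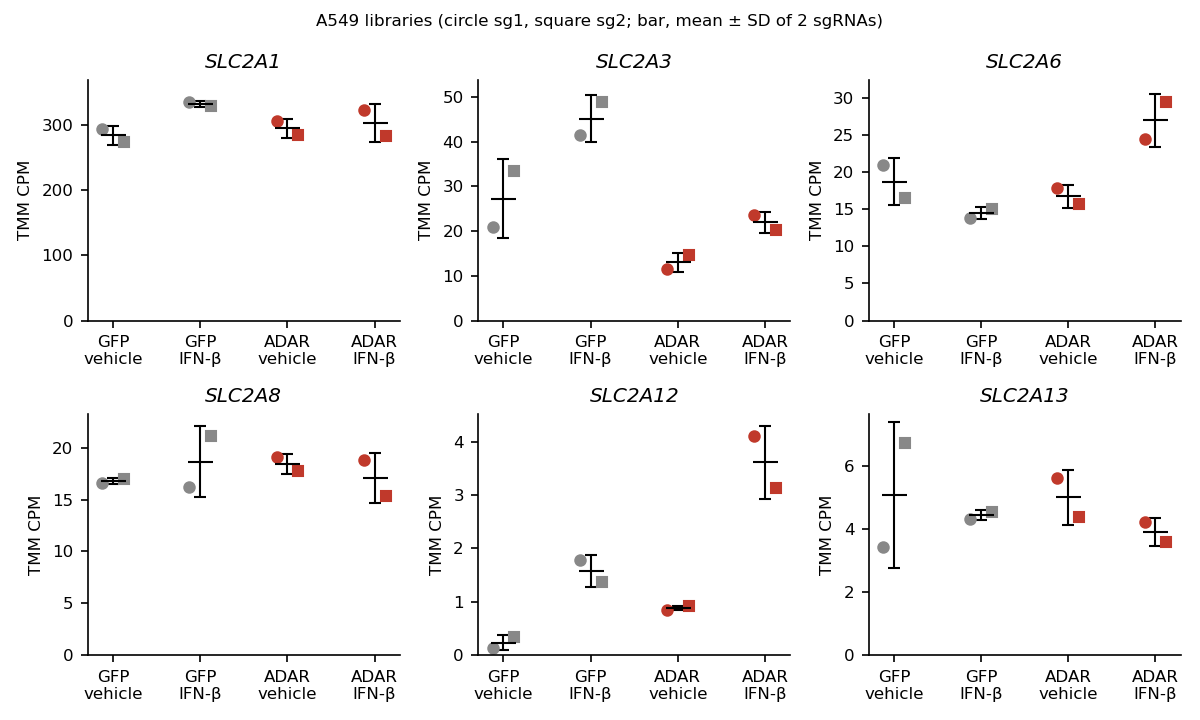
TMM CPM of 6 members in the 8 A549 libraries, with axes from 0. Points are single libraries (grey GFP, red ADAR, circle sg1, square sg2) and black bars are the mean ± SD of 2 sgRNAs; *SLC2A6* was highest in the ADAR libraries with IFN-β (24.5 and 29.5), and *SLC2A12* was higher with IFN-β than with vehicle for either target.

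*SLC2A3* was lower in ADAR than in GFP libraries with either treatment. With vehicle it measured 21.0 and 33.5 CPM in the GFP libraries and 11.5 and 14.5 CPM in the ADAR libraries, a log2 fold change of −1.09 (SE 0.19) in the contrast that helped choose the set. There 1 of 6 members, *SLC2A3* itself, and 0.123% of all genes were past the threshold, from which likewise nothing is read. It was −0.68 without GFP sg2, the higher of the 2 controls, and −0.93 without ADAR sg1. With IFN-β it measured 41.4 and 48.9 CPM in the GFP libraries and 23.6 and 20.3 CPM in the ADAR libraries, again without overlap. That log2 fold change was −1.05 (SE 0.17, adjusted p = 5.73e-05 by edgeR), from other libraries than the contrast above but from cells with the same sgRNAs, so it is not independent of the choice. The interaction, which asks whether the KO effect changed with IFN-β, was 0.04 (SE 0.26). *SLC2A3* was also higher with IFN-β than with vehicle for both targets, by a log2 fold change of 0.70 (SE 0.17) with GFP sgRNAs and 0.74 (SE 0.19) with ADAR sgRNAs. Without GFP vehicle sg1 the first of these was 0.42, and without ADAR vehicle sg1 the second was 0.59. Both share vehicle libraries with the contrast used for the choice and are not offered as tests.

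Reads of *SLC2A3* can be confused with those of its near-identical copy *SLC2A14*, so the pair was also summed. *SLC2A3* held 93.1% to 96.0% of the reads of the pair in A549. The sum measured 22.4 and 35.3 CPM with vehicle and 43.6 and 52.5 CPM with IFN-β in the GFP libraries. In the ADAR libraries it was 12.2 and 15.2 CPM with vehicle and 25.0 and 21.2 CPM with IFN-β. *SLC2A14* alone, on 13 to 58 reads per library with IFN-β, was lower after *ADAR* KO there (log2 fold change −1.45, SE 0.45, adjusted p = 0.0243 by edgeR). DESeq2 called 0 of the family genes outside the member set in that comparison. Since reads of the pair can be confused, the *SLC2A14* value may not be separate from that of *SLC2A3*. The order of the 4 condition means was the same for *SLC2A3*, *SLC2A14* and their sum.

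*SLC2A6* differed between targets with IFN-β and hardly with vehicle. With vehicle it measured 21.0 and 16.5 CPM in the GFP libraries and 17.8 and 15.7 CPM in the ADAR libraries, which overlap (log2 fold change −0.15, SE 0.19). With IFN-β it measured 13.9 and 15.1 CPM in the GFP libraries and 24.5 and 29.5 CPM in the ADAR libraries. It thus rose after *ADAR* KO under IFN-β by 1.87-fold (log2 fold change 0.90, SE 0.18, adjusted p = 0.000445 by edgeR), in a comparison in which 2 of 6 members, *SLC2A3* included, and 17% of all genes passed the threshold. IFN-β raised it in ADAR KO cells (0.70, SE 0.18, adjusted p = 0.00401), a call lost without ADAR vehicle sg2 (0.62, adjusted p = 0.0724) or ADAR IFN-β sg2 (0.54, adjusted p = 0.128). The KO effect under IFN-β kept its call without each of the 4 IFN-β libraries in turn (0.75 to 1.02). In GFP cells both IFN-β libraries were below both vehicle libraries, but the difference of −0.35 (SE 0.18, adjusted p = 0.374) did not pass. The interaction was 1.05 (SE 0.25), which is given as a description because it uses the vehicle contrast.

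*SLC2A12* rose with IFN-β from a very low level. In GFP cells it had 1 and 5 reads with vehicle and 19 and 22 reads with IFN-β, or 0.132 and 0.332 CPM against 1.78 and 1.37 CPM. In ADAR KO cells it had 7 and 9 reads with vehicle and 39 and 60 reads with IFN-β, or 0.854 and 0.915 CPM against 4.10 and 3.13 CPM. Neither pair of groups overlaps. The log2 fold change was 2.53 (SE 0.63, adjusted p = 0.00944 by edgeR) in GFP cells and 1.99 (SE 0.49, adjusted p = 0.00270) in ADAR KO cells. Among all genes, 5.70% and 24.5% passed the threshold in these comparisons. Among 6 members 2 and 3 did, but both counts include *SLC2A3*, which is not offered as a test here, so nothing is read from them. The called members offered as tests were *SLC2A6*, in ADAR KO cells only, and *SLC2A12*, in both. The change in GFP cells no longer passed without GFP vehicle sg1 (2.18, adjusted p = 0.0980) or sg2 (3.46, adjusted p = 0.0714). *ADAR* KO gave a log2 fold change of 1.19 under IFN-β (SE 0.42, adjusted p of 0.05 when rounded, just above the threshold, by edgeR) and of 1.72 with vehicle (SE 0.72, a description). *TBPL1*, which overlaps *SLC2A12*, had log2 fold changes with IFN-β of −0.16 (SE 0.23, adjusted p = 0.833) in GFP cells and 0.18 (SE 0.22, adjusted p = 0.606) in ADAR KO cells. The match to GAAANNGAAA shown above lies in the promoter window of this gene, and its part in the change was not tested.

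*SLC2A1* ranged from 274 to 335 CPM over the 8 A549 libraries, with a median of 299 CPM. IFN-β gave it a log2 fold change of 0.22 in GFP cells (SE 0.10, adjusted p = 0.240 by edgeR) and of 0.04 in ADAR KO cells (SE 0.10, adjusted p = 0.823), and *ADAR* KO under IFN-β gave −0.13 (SE 0.10, adjusted p = 0.373). *SLC2A8* ranged from 15.4 to 21.1 CPM and *SLC2A13* from 3.43 to 6.71 CPM. In the IFN-β contrasts and in *ADAR* KO under IFN-β, no log2 fold change of these 2 genes passed the threshold (−0.15 to 0.16 for *SLC2A8* and −0.36 to −0.20 for *SLC2A13*).

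**Figure D4:**
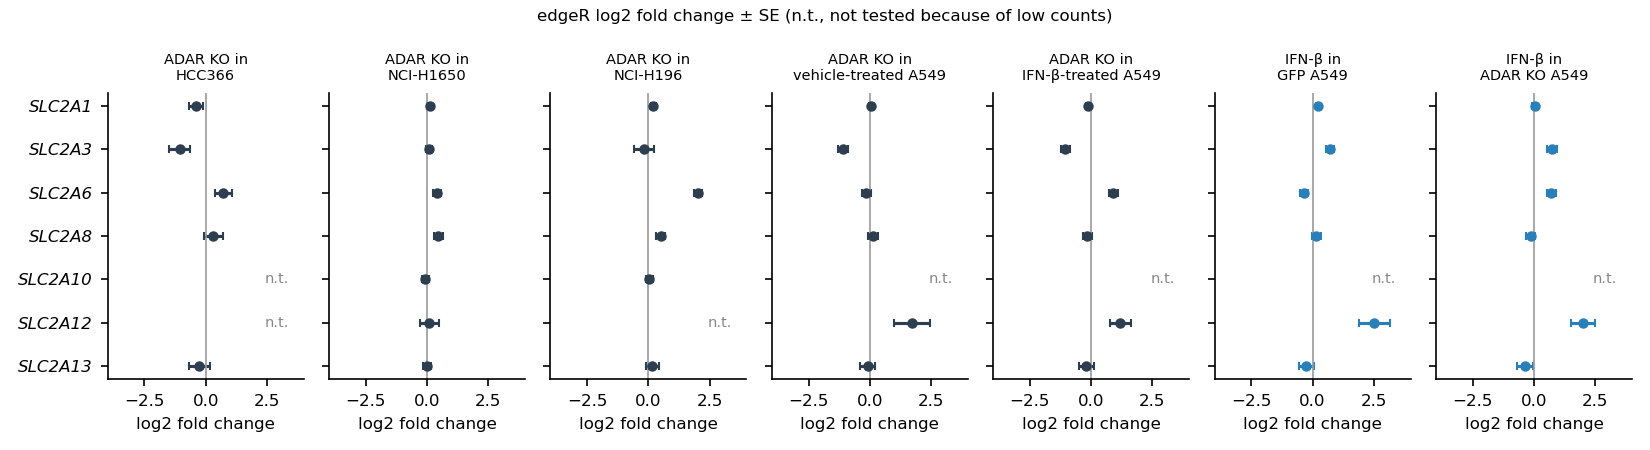
Log2 fold change (points) and its SE (bars) of each member by edgeR in 5 comparisons of *ADAR* KO with GFP (dark) and 2 of IFN-β with vehicle (blue), where n.t. marks genes with too few reads to test. *SLC2A6* ranged from −0.15 in vehicle-treated A549 to 2.02 in NCI-H196, and *SLC2A12* had the largest values in both IFN-β comparisons.

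Genes around the transporters were examined by lists. Glycolysis and lactate export includes the enzymes that trap and break down glucose, and the regulators include *TXNIP* and *ARRDC4*, arrestin-like proteins that lower transporter at the cell surface. In HCC366, where 1.25% of all genes passed by edgeR, *ADAR* KO raised 1 of 23 glycolysis genes tested. This was the hexokinase-like *HKDC1* (log2 fold change 3.02, SE 0.55, adjusted p = 0.0402 by edgeR). None of 14 regulators and none of 13 hypoxia-inducible genes passed there by edgeR, with 4 in each list under an unadjusted p of 0.05 and 2 and 0 called by DESeq2.

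In NCI-H1650, where 8.60% of all genes passed by edgeR, *ADAR* KO raised 3 of 15 regulators tested. *TXNIP* had a log2 fold change of 1.00 (SE 0.11, adjusted p = 1.91e-09 by edgeR), its relative *ARRDC4* 0.75 (SE 0.14) and the transcription factor *MYC* 0.86 (SE 0.11). Of 23 glycolysis genes, 2 rose, *ENO3* (1.08, SE 0.23) and *PFKFB3* (0.49, SE 0.11), and *LDHB* fell by 0.32. Of 16 hypoxia-inducible genes, 2 rose, the stress gene *DDIT4* (0.87, SE 0.12) and the angiogenic factor *VEGFA* (0.60, SE 0.11). The medians of the 3 lists were 0.04, −0.04 and 0.04, beside 0.01 for all genes. In NCI-H196, 9 of 24 glycolysis genes passed by edgeR, 2 higher and 7 lower, with the largest changes in *PFKFB2* (−0.99), *LDHA* (−0.68), *ENO2* (−0.67) and *SLC16A3* (0.58). Of 14 regulators 2 were higher and 2 lower, and of 16 hypoxia-inducible genes 4 were higher and 2 lower, among them *EGLN3* (2.30) and *DDIT4* (1.68). The list medians were −0.12, −0.08 and 0.02, beside 0.00 for all genes, and 17.8% of all genes passed by edgeR. DESeq2 called 0 in each of these lists, with the shallow control library in the fit.

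In A549, IFN-β in GFP cells raised 5 of 24 glycolysis genes and lowered 0, where 5.70% of all genes passed by edgeR. The largest change was that of hexokinase *HK2* (log2 fold change 2.10, SE 0.32, adjusted p = 2.14e-05 by edgeR), followed by *PGAM1* (0.45, SE 0.11), *ENO2* (0.42, SE 0.12) and the lactate exporter *SLC16A3* (0.41, SE 0.11). Of 17 hypoxia-inducible genes 6 rose and 1 fell, with *CA9* at 1.69 (SE 0.29), *DDIT4* at 0.83 (SE 0.12), *PDK1* at 0.71 (SE 0.19) and *ADM* at 0.70 (SE 0.12). The list medians were 0.21 and 0.30, beside 0.00 for all genes. Of 14 regulators, *LNPEP* rose (0.90, SE 0.11), an aminopeptidase that travels with GLUT4.

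In ADAR KO cells, IFN-β raised 2 and lowered 3 of the 24 glycolysis genes, with *HK2* at 1.56 (SE 0.33) and *HKDC1* at 0.48 (SE 0.11), and the list median was −0.15. Among all genes 24.5% passed by edgeR in this comparison, a share not exceeded by the glycolysis or regulator genes. *MYC* (0.88, SE 0.10) and *LNPEP* (1.36, SE 0.11) rose among 14 regulators, and 1 fell, *SLC2A4RG* (−0.53, SE 0.13). Of 17 hypoxia-inducible genes 6 rose and 1 fell, with *DDIT4* at 1.25 (SE 0.12) and *ADM* at 1.17 (SE 0.12). Under IFN-β, *ADAR* KO lowered 9 and raised 2 of the 24 glycolysis genes, with a median of −0.27 beside −0.01 for all genes. The changes were small, as in *PFKL* (−0.53, SE 0.13) and *ALDOA* (−0.41, SE 0.10), while *ENO3* (0.79, SE 0.20) and *HKDC1* (0.58, SE 0.11) rose. Of 17 hypoxia-inducible genes 5 rose and 2 fell there, among them *DDIT4* (0.72, SE 0.11) and *EGLN3* (−0.73, SE 0.23), and of 14 regulators 2 rose and 1 fell. With vehicle, *ADAR* KO changed no gene of these 3 lists past the threshold by edgeR or DESeq2, and 1, 3 and 1 genes of the glycolysis, regulator and hypoxia lists were under an unadjusted p of 0.05. Only 0.123% of all genes passed by edgeR with vehicle.

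Except for *SLC2A11*, the other 7 family genes and the sodium-coupled *SLC5A1* and *SLC5A2* were scarce. Apart from *SLC2A11*, no condition mean of any of them exceeded 3.26 CPM. *SLC2A11* reached 18.6 ± 2.68 CPM in NCI-H1650 ADAR cells and 18.3 ± 1.72 CPM in HCC366 GFP cells, where it lay above the member *SLC2A13* (13.2 CPM). Of the other family genes, 1 could be tested in NCI-H196, and it was lower after *ADAR* KO by edgeR (log2 fold change −0.98), while DESeq2 called 0. *SLC5A1* and *SLC5A2* had too few reads to be tested in any fit. At the basal level, 17 of 24 glycolysis genes were lower and 2 higher in NCI-H196 than in A549, with a median log2 difference of −1.41 beside 0.07 for all genes. Against A549, 15 were also lower and 5 higher in HCC366 (median −0.70), and 16 lower and 4 higher in NCI-H1650 (median −0.91). Of all genes, 57.8% passed for NCI-H196, 50.8% for HCC366 and 53.8% for NCI-H1650.

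The pattern over the 10 condition means of log2 CPM was compared across genes, as a description in which the line is the main source of difference. *SLC2A6* was most like *DOC2GP*, *KLHDC9* and *RWDD2A* (Pearson's r 0.984, 0.983 and 0.982), and *SLC2A10* most like *GPX7*, *STON2* and *TMEM154* (0.998, 0.997 and 0.996). *SLC2A3* was most like *LENG8-AS1*, *CXCL16* and *DSP*, each at 0.977, and *SLC2A1* most like *H2AC16*, *RPL31P4* and *HYLS1*, at 0.987, 0.987 and 0.986. *SLC2A8* was most like *TMEM259*, *LRMDA* and *IKBKGP1* (0.970, 0.960 and 0.959), and *SLC2A13* most like *GLCCI1*, *NELFCD* and *PAQR7* (0.978, 0.973 and 0.970). For the scarce *SLC2A12* the leading genes *ADGRG6*, *THUMPD1* and *RBAK* reached only 0.909, 0.909 and 0.907. Between members the coefficients ran from −0.705 (*SLC2A8* with *SLC2A10*) to 0.863 (*SLC2A1* with *SLC2A3*).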

How the data were processed

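RNA was depleted of ribosomal RNA and made into directional libraries. Per the labels and the submitters' processing notes, STAR served the authors for alignment to hg19 and HTSeq for counting over genes. Raw counts without normalization were deposited, as a file for each library. The annotation release and the strand setting of the counting are not given in the sources used here. HTSeq's summary lines, 51.3% to 93.3% of each file's total, were left out. No 2 files were identical, and the 2 libraries of every condition differed by more than sampling noise. Between 62679 and 19520189 reads fell on genes (median 6411279), and intervals and floors cover counting error only.

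Differences were tested with edgeR 4.0.16 under R 4.3.3 (TMM scaling, filterByExpr by condition, quasi-likelihood F-test, prior count 0.125) and adjusted by Benjamini-Hochberg over all genes tested, with a threshold of 0.05. HCC366, NCI-H1650 and NCI-H196 were fitted separately and the 8 A549 libraries jointly, while basal levels and the difference between HCC366 and NCI-H1650 came from a fit of all 20 libraries. The SE is the log2 fold change divided by the square root of F. Genes tested numbered 11135 (HCC366), 14530 (NCI-H1650), 14094 (NCI-H196), 15449 (A549) and 19523 (all). The scripts were tested on simulated data. DESeq2 1.42.0, its size factors in edgeR, no filter, a replicate block, other sets of libraries and each library left out were tried.

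Positions and exon lengths are from a GENCODE annotation mapped to GRCh37. Members and lists were chosen with earlier results of these data known. All members are named, with the 3 genes most like each and up to 4 called genes of largest change per list. The pairing by sgRNA number was checked by the correlation, between libraries of 1 number, of their departures from the mean of the group.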

Additional observations from a re-analysis of the deposited data

Results flagged for a closer look

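In all, 4 differences between *ADAR* KO effects were picked out because both ADAR libraries lay above both GFP libraries in 1 setting and below them in the other. By exact permutation, 2 against 2 libraries separate fully in either direction with a probability of 0.333, so nothing is read from the number of such placings. The share of all genes placed in this way was not computed. None of these 4 was tested, and the same opposite placing of *SLC2A1* in HCC366 and NCI-H1650 was tested and did not pass (−0.56, adjusted p = 0.249 by edgeR). The *SLC2A1* effect in HCC366 minus that in NCI-H196 was −0.608 on the log2 scale. The *SLC2A1* effect in IFN-β-treated A549 was lower than in NCI-H1650 by 0.242 and lower than in NCI-H196 by 0.338. The *SLC2A10* effect in NCI-H1650 minus that in NCI-H196 was −0.109. The NCI-H196 effects rest partly on GFP sg2, with 8 reads on *SLC2A1* and 3 reads on *SLC2A10*.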

How the results depend on the processing

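The tally that follows took only member fold changes larger than their SE, from groups with reads. Effects near 0, which change sign most easily, were thus left out beforehand. It includes the contrasts used to choose the set, and values that stayed short of the threshold count as kept. Across the alternatives, these fold changes kept their direction and their side of the threshold in 279 cases with another test, scaling, filter, block or fit. They gained a call in 10, lost a call in 10 and reversed in 0, leaving out 3 for which DESeq2 gave no adjusted p. With single libraries left out, 212 were kept, 8 gained a call, 30 lost it and 2 reversed: without NCI-H196 GFP sg1, the basal difference of NCI-H196 from HCC366 was 0.77 for *SLC2A13* (−0.77 to 0.77 over the libraries left out) and that from NCI-H1650 was −0.23 for *SLC2A8* (−0.23 to 0.57), where the remaining control had 62679 reads. The number of members called moved from 0 to 2 in HCC366 with all 20 libraries in a single fit (0 to 4 with libraries left out), from 0 in NCI-H1650 to 0 to 1 with libraries left out, and from 1 in NCI-H196 to 0 by DESeq2, which gave *SLC2A6* no adjusted p there (0 to 2 with libraries left out). In A549 it moved with the fit of 20 libraries from 1 to 0 for *ADAR* KO with vehicle (0 to 1 with libraries left out), from 2 to 1 for IFN-β in GFP cells (0 to 2) and from 1 to 0 for the interaction (0 to 1). For HCC366 minus NCI-H1650 it was 0 to 2 with libraries left out. The cause was not tested. Among all genes, *ADAR* KO called 139 in HCC366, 362 by DESeq2, 903 without the filter, 3701 with 20 libraries and 9 to 6408 with libraries left out. NCI-H1650 had 1250, 413 by DESeq2, 159 with 20 libraries and 542 to 1110 with libraries left out. NCI-H196 had 2513, 10 by DESeq2, 1552 without the filter, 98 with 20 libraries and 41 to 3041 with libraries left out. Vehicle-treated A549 had 19, 11 by DESeq2, 30 without the filter, 5 with 20 libraries and 3 to 17 with libraries left out. Under IFN-β, *ADAR* KO called 2622, 1087 with 20 libraries and 689 to 3581 with libraries left out. IFN-β called 880, 531 with 20 libraries and 517 to 1245 with libraries left out in GFP cells, and 3788, 2067 and 1774 to 3496 in ADAR KO cells. The basal count of NCI-H196 against NCI-H1650 was 9121, and 6069 by DESeq2. For HCC366 minus NCI-H1650 it was 432, and 37 to 4288 with libraries left out. Between libraries of the same sgRNA number, the correlation over 9 pairs of groups was −0.25 to 0.037, which cannot show that they are unpaired. In A549, vehicle and IFN-β libraries of the same target and number carry the same sgRNA, and the main tests did not use this pairing. With a block for each sgRNA, 2 members were called for IFN-β in GFP cells and 3 in ADAR KO cells, *SLC2A3* among them in both, the same as without it. With a replicate block the number of members called was 0 in HCC366 and NCI-H1650, 1 in NCI-H196, 2 in A549 for *ADAR* KO under IFN-β and 7 for basal levels, each the same as without it, and all genes called in HCC366 and NCI-H196 became 300 and 115. A crossed block in HCC366, chosen after seeing the data, called 960. A library left alone in its group is assumed to vary like the other groups. Depth limits *SLC2A12* in every line and all members in NCI-H196, where 1 control has 62679 reads.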
